A study of Homo sapiens with 6 samples.

Results

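The genes described here are 35 peroxisome genes chosen by name out of the 60240 genes of the deposited table: 13 PEX genes, 16 enzymes of fatty acid oxidation and ether lipid synthesis, and 6 genes for membrane proteins and catalase. All 35 symbols matched 1 Ensembl gene each. Peroxisomes are small organelles in which very long-chain, branched and bile acid precursor fatty acids are shortened by oxidation and in which the synthesis of ether lipids begins. Their proteins are made in the cytosol and brought in by peroxins, the products of the PEX genes, and liver cells are rich in the organelle. In rodent liver the nuclear receptor PPAR-alpha is known to raise many of its oxidation genes. The study concerned lipid accumulation in liver cancer cells given GDF11, a secreted ligand related to TGF-beta.

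The cells were HepG2, a human hepatocellular carcinoma line, grown in high-glucose medium with fetal bovine serum. In 3 cultures they received 100 ng/ml recombinant GDF11 for 24 h, and 3 control cultures did not. The labels name no vehicle. They call the cultures biological replicates of the same line, so that p-values measure the spread between cultures of HepG2 only. Total RNA was sequenced as single reads of 75 bases.

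Values stand on the authors' variance-stabilised log2 scale, whose floor, for genes with 0 reads, is 5.52. The curve can be inverted to normalised reads, on which folds are given as ratios of group means. From the smallest step in its values, each library held an estimated 47900000 to 53400000 reads. The labels name a MiSeq, an instrument whose usual output is well below such a depth for 6 libraries, so the estimate is uncertain. The labels give RNA integrity numbers of 9.6, 9.5 and 9.4 for GDF11 replicates 1, 2 and 3, against 9.8, 9.9 and 9.6 for control replicates 1, 2 and 3. No GDF11 library exceeded a control, and only GDF11 replicate 1 and control replicate 3 were equal, at 9.6. Fits adjusted for RNA integrity therefore cannot fully separate it from the treatment. As a check of the treatment, SMAD7, an inhibitory SMAD gene and known TGF-beta target, averaged 11.62 ± 0.065 with GDF11 and 9.51 ± 0.66 in controls (SD, n = 3 each). Its log2 difference was 2.10 ± 0.29 (SE), and it was called higher. All 9 hepatocyte and HepG2 markers were detected, at log2 values of 10.73 to 19.56, with summed levels of 1226000 to 1408180 normalised reads with GDF11 and 1394880 to 2050310 in controls. These sums overlap, and SERPINA1, which was not called (log2 difference 0.05 ± 0.26, SE), is the most abundant of the 9. Of the 9 markers, 4 were called lower with GDF11, namely TTR (-1.52 ± 0.24), FGB (-1.42 ± 0.16), ALB (-0.75 ± 0.17) and AFP (-0.56 ± 0.16). APOA1 (-0.93 ± 0.29) and HNF4A (-0.46 ± 0.15) were not called, although all their GDF11 values lay below the controls, and APOA2 and TF overlapped between the groups. Of 9 markers of blood, endothelial and fibroblast cells, PTPRC and CD3E had no reads in any library, and the summed level of the 9 was 2218 to 2921 normalised reads with GDF11 and 1363 to 2024 in controls. Most of that sum was PDGFRB, at 10.97 to 11.37 with GDF11 and 9.71 to 10.61 in controls. PDGFRB was called higher (log2 difference 0.92 ± 0.23, SE) and VWF was called lower (-0.87 ± 0.15). CD14 (-0.76 ± 0.26) and CDH5 (-0.16 ± 0.15) were not called, and KDR, DCN and COL1A2 were too low to be tested. The part of these marker levels in the results was not tested.

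For most called members control replicate 3 lay nearer to the GDF11 libraries than the mean of the other controls. Placed between the mean of control replicates 1 and 2 (position 0) and the GDF11 mean (position 1), it had a median position of 0.33 over the 15 members that differ by at least 0.5 there. Choosing members by that distance by itself favours positions above 0. Over the 13 members called in the comparison control replicate 3 had a median position of 0.2. It lay toward the GDF11 libraries for 9 and away from them for 4. Counts are given with and without it.

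Promoter windows were looked up for the members in a RefSeq table (GRCh38.p14), which matched 29 of the 35. A window runs from 250 bases before to 50 bases after a listed start. That start is not always the outer end of the gene. The ABCD3 window begins at 94418139, while the gene begins at 94385131. Base composition and motif matches hold only for the window used. Where several windows are listed for a gene, the one listed first was used. ACOX3, the only member that rose, and ECI2, the member with the largest fall among those with a window, are shown to compare their base composition. The capitals in these 2 mark CpG dinucleotides, of which ACOX3 has 29 and ECI2 28, against a median of 14 over the windows of 27305 genes. The windows lie on the minus strand at chr4:8440674-8440973 (ACOX3) and chr6:4135526-4135825 (ECI2).
ACOX3: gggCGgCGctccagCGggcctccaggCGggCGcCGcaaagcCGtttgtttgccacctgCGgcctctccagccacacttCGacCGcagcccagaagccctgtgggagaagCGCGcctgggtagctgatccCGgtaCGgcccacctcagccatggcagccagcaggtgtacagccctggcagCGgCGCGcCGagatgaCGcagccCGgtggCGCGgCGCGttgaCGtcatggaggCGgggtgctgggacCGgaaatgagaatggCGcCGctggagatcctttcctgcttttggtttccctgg
ECI2: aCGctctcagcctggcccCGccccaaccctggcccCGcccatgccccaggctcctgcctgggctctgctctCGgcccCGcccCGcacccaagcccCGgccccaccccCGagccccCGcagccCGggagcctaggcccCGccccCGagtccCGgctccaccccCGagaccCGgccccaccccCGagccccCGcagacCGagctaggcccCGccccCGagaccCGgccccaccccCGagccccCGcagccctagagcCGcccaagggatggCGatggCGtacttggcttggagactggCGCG
These windows have 68.7% GC (ACOX3) and 79.0% GC (ECI2). The median was 65% GC over the 29 members with a window, 66.3% over the 9 called and 63% over the 20 not called or not tested, against 58.3% over all windows. The median number of CpG was 28 over the 9 called and 20 over the other 20.

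Of the 33 members that passed the filter on low values, 1 rose and 12 fell with GDF11, and 20 were not called. A gene was called at a Benjamini-Hochberg adjusted p under 0.05 in limma, fitted over all 18723 tested genes. Among all tested genes 11.7% were called higher and 10.8% lower. The share of members called was 3.03% higher and 36.4% lower. The groups did not overlap for 16 members, 1 with all GDF11 libraries above the controls and 15 with all below, where they did not overlap for 40.5% of all tested genes, 20.9% above and 19.6% below. The median log2 difference, GDF11 minus control, was -0.25 over the members and 0.0056 over all tested genes. In such bulk samples fewer cells of a type and less RNA per cell cannot be told apart. Without control replicate 3 the members called were 1 higher and 15 lower, where all tested genes had 19.5% higher and 21.3% lower. They were, adjusted for RNA integrity, 1 higher and 5 lower, where all tested genes had 6.14% and 3.85%. Without GDF11 replicate 1 the count lower was 7, where all tested genes had 1001 lower, against 2017 with all 6 libraries.

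The oxidation and ether lipid enzymes held most of the calls. Of 15 tested, 1 rose (6.67%), 8 fell (53.3%) and 6 were not called, with a median of -0.55. The shares over all tested genes were 11.7% higher and 10.8% lower. Of the 9 hepatocyte markers, 4 were also called lower and the others were not called. The part of these markers in the enzyme result was not tested. Of 12 tested PEX genes, 0 rose, 3 fell (25%) and 9 were not called, with a median of -0.24. At an unadjusted p under 0.05 there was likewise no PEX gene higher. Of the 6 membrane and catalase genes, 0 rose and 1 fell (16.7%, against 10.8% of all tested genes), with a median of -0.03. Without control replicate 3 the enzyme count lower was again 8 and the PEX count 6, where 21.3% of all tested genes were lower. Adjusted for RNA integrity, which the design does not fully separate from GDF11, the enzyme count lower was 5 and the PEX count 0. In that fit 3.85% of all tested genes were called lower. The PEX count lower was 1 without control replicate 1 or 2 or any GDF11 replicate, and the enzyme count was 5 without GDF11 replicate 1. In these fits, each without 1 library, 955 to 1189 of all tested genes were called lower, against 2017 with all 6.

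**Figure D1:**
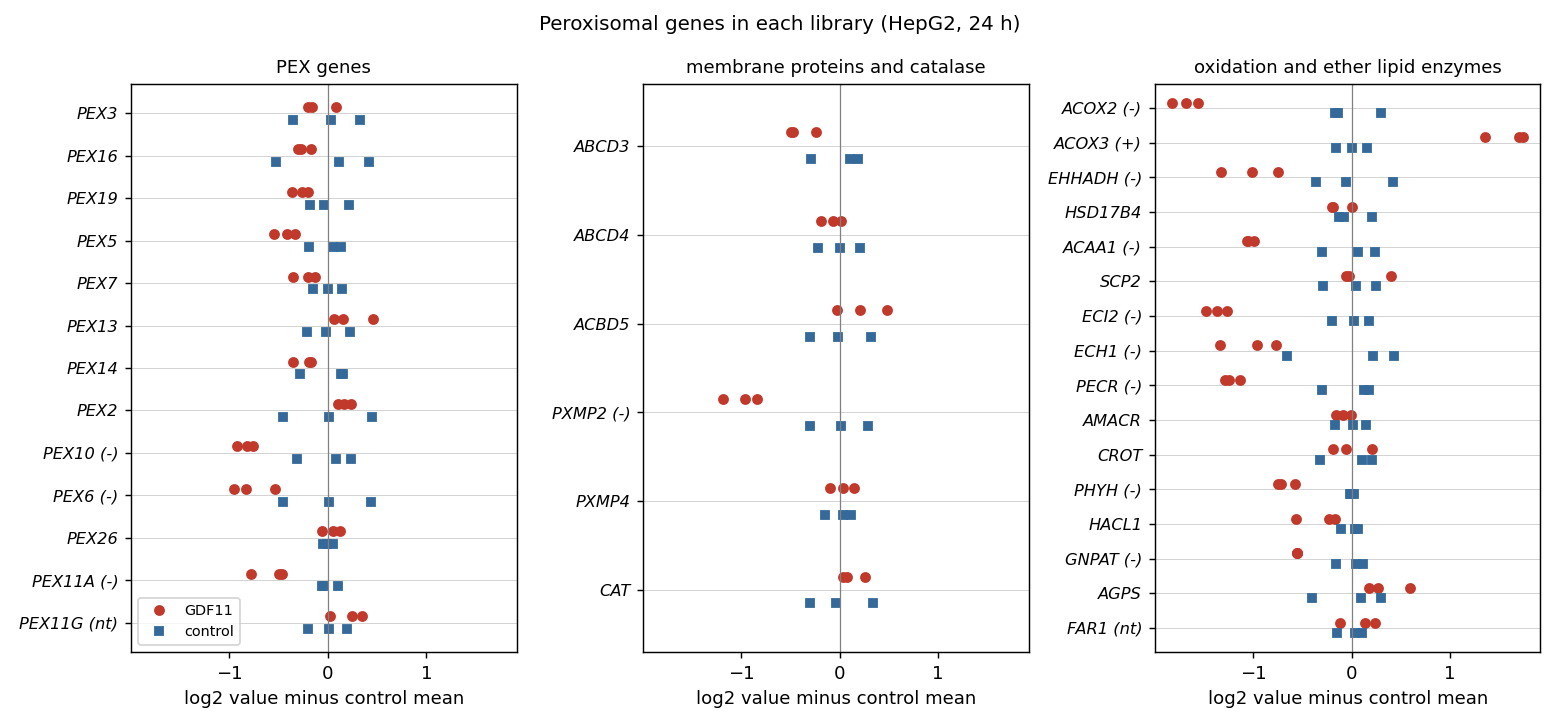
Log2 value of each member in each library minus the mean of its 3 controls (circles: GDF11, squares: control), with (-) for called lower, (+) for called higher and (nt) for not tested. The GDF11 circles of ACOX2 lie below all controls and those of ACOX3 above them. All GDF11 circles lie below all controls for 5 of the 13 PEX genes and 9 of the 16 enzymes, against 19.6% of all tested genes.

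The acyl-CoA oxidases, which carry out the entry step of peroxisomal beta-oxidation, moved in opposite directions. ACOX2 (ENSG00000168306.13, chromosome 3, 58505136 to 58537190), the oxidase of bile acid intermediates and branched-chain fatty acids, stood at 8.75, 9.01 and 8.89 in the GDF11 libraries, against 10.40, 10.87 and 10.44 in the controls. All 3 GDF11 values lay below all controls. It was called lower, with a log2 difference of -1.69 ± 0.17 (SE, limma adjusted p = 0.000268). In normalised reads it had 386 ± 42.2 with GDF11 and 1448 ± 290 in controls (SD, n = 3 each), a level 3.75 times as high in the controls.

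ACOX3 (ENSG00000087008.16, chromosome 4, 8355305 to 8440723), for another oxidase of branched-chain acyl-CoAs, stood at 12.26, 12.30 and 11.91 in the GDF11 libraries, against 10.56, 10.72 and 10.40 in the controls. It rose by 1.60 ± 0.17 (limma adjusted p = 0.000276), with 4508 ± 649 normalised reads with GDF11 and 1425 ± 166 in controls, 3.16 times the control level. Its groups lay farther apart than any spread within them.

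Of the 4 core enzymes that follow, 2 fell. EHHADH, the L-bifunctional enzyme of hydration and dehydrogenation, stood at 10.40, 10.08 and 10.66 in the GDF11 libraries, against 11.05, 11.35 and 11.82 in the controls, called lower at a log2 difference of -1.02 ± 0.23 (limma adjusted p = 0.0134). HSD17B4, the D-bifunctional enzyme that does the same steps for branched-chain substrates and bile acid precursors, was not called, at 12.64, 12.63 and 12.84 with GDF11 and 12.76, 12.71 and 13.04 in controls (log2 difference -0.13 ± 0.16, limma adjusted p = 0.586). The EHHADH groups did not overlap and the HSD17B4 groups did. The difference between the 2 genes was not tested.

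ACAA1, for the straight-chain thiolase of the last step, stood at 12.32, 12.39 and 12.31 in the GDF11 libraries, against 13.44, 13.61 and 13.07 in the controls. The 3 GDF11 values were close together and all below the controls, and the gene was called lower at a log2 difference of -1.03 ± 0.17 (limma adjusted p = 0.00305). SCP2, whose gene encodes a thiolase for branched substrates and a sterol carrier protein, overlapped between the groups, at 10.85, 10.89 and 11.31 with GDF11 and 10.96, 10.62 and 11.15 in controls (log2 difference 0.11 ± 0.19, limma adjusted p = 0.723). The EHHADH call ended without GDF11 replicate 2, at -0.87. The ACAA1 call ended on adjustment for RNA integrity, at -0.70, where EHHADH stood at -1.49. HSD17B4 was called lower after correction for GC content and length, at -0.38.

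Of the 5 auxiliary enzymes, 3 fell, and all 3 act on unsaturated acyl-CoAs. ECI2 (ENSG00000198721.12, chromosome 6, 4115706 to 4135575), an enoyl-CoA isomerase of peroxisomes and mitochondria, stood at 11.93, 12.03 and 11.81 in the GDF11 libraries, against 13.31, 13.46 and 13.09 in the controls. It fell by 1.37 ± 0.16 (limma adjusted p = 0.000448), with 3793 ± 293 normalised reads with GDF11 and 9969 ± 1277 in controls. Controls thus had 2.63 times as many.

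PECR (ENSG00000115425.14, chromosome 2, 216029088 to 216081809), a peroxisomal enoyl-CoA reductase, stood at 10.79, 10.94 and 10.83 in the GDF11 libraries, against 12.25, 12.19 and 11.77 in the controls, called lower at a log2 difference of -1.22 ± 0.17 (limma adjusted p = 0.00126). ECH1, a dienoyl-CoA isomerase of both organelles, stood at 12.56, 12.75 and 12.19 in the GDF11 libraries, against 13.74, 13.95 and 12.87 in the controls, called lower at a log2 difference of -1.02 ± 0.28 (limma adjusted p = 0.0315). Control replicate 3 of ECH1 lay nearer to the GDF11 libraries than to the other controls. ECH1 fell by 1.35 without it, and it was not called when control 1 (-0.91), control 2 (-0.80), GDF11 1 (-1.05) or GDF11 3 (-0.87) was left out, or when adjusted for RNA integrity (-0.18).

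AMACR, the racemase that prepares branched substrates, and CROT, which passes shortened chains to carnitine for export, were not called. AMACR stood at 10.45, 10.38 and 10.53 with GDF11 and 10.55, 10.37 and 10.68 in controls (log2 difference -0.08 ± 0.15). CROT stood at 8.59, 8.46 and 8.86 with GDF11 and 8.76, 8.33 and 8.86 in controls (log2 difference -0.01 ± 0.19). In both genes the groups overlapped.

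**Figure D2:**
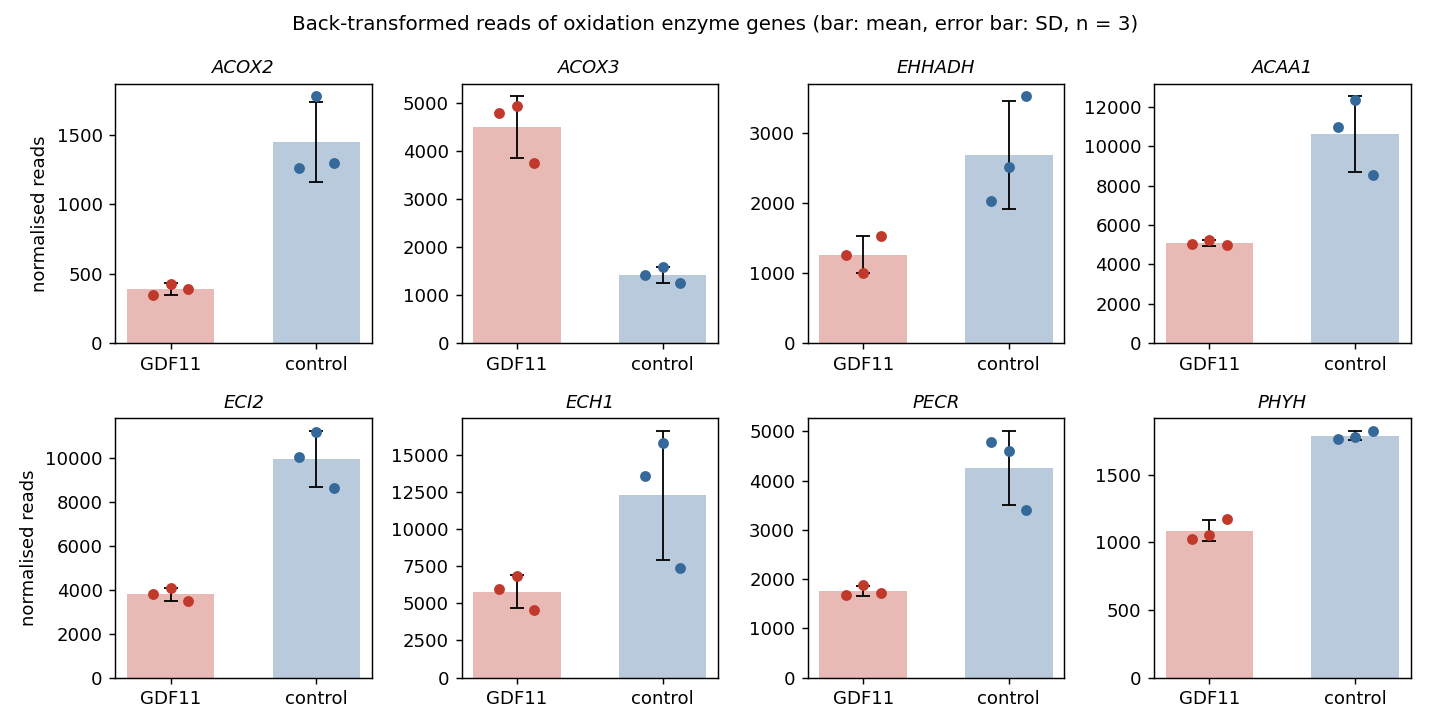
Back-transformed normalised reads of 8 oxidation enzyme genes (bars: mean, error bars: SD, n = 3, points: libraries, GDF11 left of control). ACOX3 is higher with GDF11, at 4508 against 1425 reads, and the other 7 are lower, among them ECI2 at 3793 against 9969.

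In alpha-oxidation, which removes a carbon from phytanic acid so that beta-oxidation can act, both genes lay lower. PHYH, the phytanoyl-CoA hydroxylase, stood at 10.12, 10.16 and 10.30 in the GDF11 libraries, against 10.86, 10.87 and 10.90 in the controls, called lower at a log2 difference of -0.68 ± 0.14 (limma adjusted p = 0.00801). Its controls were the closest together of the called members, with an SD of 0.024. HACL1, the lyase of the following step, stood at 10.40, 10.34 and 10.00 with GDF11 and 10.61, 10.63 and 10.46 in controls. Its groups did not overlap, yet it was not called (log2 difference -0.32 ± 0.16, limma adjusted p = 0.181). The PHYH call ended without GDF11 replicate 1, at -0.64.

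Ether lipid synthesis starts with GNPAT, which acylates dihydroxyacetone phosphate, and AGPS, which replaces that acyl chain with a fatty alcohol supplied by FAR1. GNPAT stood at 11.57, 11.57 and 11.58 in the GDF11 libraries, against 12.25, 11.97 and 12.17 in the controls, called lower at a log2 difference of -0.55 ± 0.14 (limma adjusted p = 0.0236). AGPS stood at 12.28, 12.37 and 12.70 in the GDF11 libraries, against 12.20, 11.71 and 12.41 in the controls, and was not called (log2 difference 0.35 ± 0.21, limma adjusted p = 0.259). The GNPAT groups did not overlap and the AGPS groups did. GNPAT was not called when control 1 (-0.49) or any GDF11 library (-0.55 each) was left out, under quantile normalization (-0.45) or when adjusted for RNA integrity (-0.65).

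FAR1 did not pass the filter, with 2.15, 7.25 and 9.97 normalised reads in the GDF11 libraries, against 4.79, 1.80 and 6.45 in the controls. Whether these cells hold so little of it or the quantification missed it cannot be read from the table. The promoter window of AGPS is shown because AGPS is the only enzyme member whose window holds the nuclear receptor element AGGTCA. The capitals mark the match, which lies on the opposite strand with 29 bases between it and the start site. The window lies on the plus strand at chr2:177392523-177392822.
AGPS: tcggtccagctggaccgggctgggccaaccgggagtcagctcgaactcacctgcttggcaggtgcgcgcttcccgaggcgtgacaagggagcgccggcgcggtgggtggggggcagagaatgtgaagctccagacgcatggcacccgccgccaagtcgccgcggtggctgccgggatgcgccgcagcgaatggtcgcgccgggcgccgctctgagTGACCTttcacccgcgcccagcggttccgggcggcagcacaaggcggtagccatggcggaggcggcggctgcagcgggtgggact
Over the 29 members with a window, searched on both strands, AGGTCA was found in 3 (ABCD4, PXMP4 and AGPS), and 13.9% of all 27305 windows hold it. The direct repeat of that element with 1 base between, the form bound by PPAR-alpha with RXR, was in 0 of 29 and in 0.022% of all windows. The SMAD3 element CAGACA was in 4 (PEX19, PEX5, PEX11G and PXMP4), and 16.8% of all windows hold it. The absence of a match says only that these letters are not in the window. Every match of the repeat would also be a match of AGGTCA. None of the 9 called members with a window holds AGGTCA or CAGACA in it. The called members ACOX2, EHHADH, ACAA1 and ECH1 had no window and were not searched, nor were PEX14 and PEX2.

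The peroxins divide the work of building the organelle. PEX3, PEX16 and PEX19 insert membrane proteins, and none was called. PEX19, the one farthest from 0, stood at 11.89, 11.83 and 11.72 in the GDF11 libraries, against 12.05, 12.31 and 11.91 in the controls (log2 difference -0.28 ± 0.16, limma adjusted p = 0.232). PEX16 stood at 10.16, 10.25 and 10.13 with GDF11 and 10.54, 10.85 and 9.90 in controls, and PEX3 had a log2 difference of -0.09 ± 0.20. Control replicate 3 was the lowest of the PEX16 values, and PEX16 was called lower without it, at -0.51.

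Matrix enzymes carry targeting signals that are read by PEX5, for signals at the C-terminus, and PEX7, for those near the N-terminus. PEX5 stood at 11.33, 11.41 and 11.19 in the GDF11 libraries, against 11.55, 11.87 and 11.80 in the controls. Its groups did not overlap, and it was not called (log2 difference -0.43 ± 0.15, limma adjusted p = 0.0718). PEX5 was called lower without control replicate 3, at -0.40, and after correction for GC content and length, at -0.41. PEX7, which serves ACAA1, PHYH and AGPS, was near the lowest value, with 2.56, 6.92 and 5.2 normalised reads in the GDF11 libraries, against 10.8, 15.9 and 6.44 in the controls, and was not called (limma adjusted p = 0.160). Near a value of 6 only 0.164 of a true log2 change shows on this scale.

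The docking proteins PEX13 and PEX14 were not called. PEX14 stood at 10.34, 10.32 and 10.16 in the GDF11 libraries, against 10.64, 10.67 and 10.23 in the controls (log2 difference -0.24 ± 0.17), and PEX13 at 10.72, 10.81 and 11.11 with GDF11 and 10.64, 10.44 and 10.89 in controls (log2 difference 0.22 ± 0.18). Both pairs of groups overlapped. Without control replicate 3 PEX14 was called lower, at -0.38.

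Used receptors are pulled back out of the membrane by a ubiquitin ligase with PEX2 and PEX10 and by an ATPase with PEX6 that PEX26 anchors. PEX10 and PEX6 had the largest PEX differences, while PEX2 and PEX26 were not called. PEX10 stood at 10.79, 10.84 and 10.68 in the GDF11 libraries, against 11.68, 11.84 and 11.29 in the controls, called lower at a log2 difference of -0.83 ± 0.17 (limma adjusted p = 0.00962). It had 1657 ± 94.9 normalised reads with GDF11 and 3057 ± 594 in controls, and its groups did not overlap. PEX2, its partner, stood at 11.01, 11.08 and 10.96 with GDF11, inside the control range of 11.29, 10.86 and 10.39, and was not called (log2 difference 0.17 ± 0.22).

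PEX6 stood at 9.94, 10.23 and 9.81 in the GDF11 libraries, against 10.79, 11.21 and 10.31 in the controls, called lower at a log2 difference of -0.77 ± 0.23 (limma adjusted p = 0.0433). PEX26 was nearly level, at 11.90, 11.83 and 11.71 with GDF11 and 11.73, 11.83 and 11.77 in controls (log2 difference 0.04 ± 0.14). PEX6 was not called when control 1 (-0.77), control 2 (-0.55), GDF11 1 (-0.75), GDF11 2 (-0.89) or GDF11 3 (-0.68) was left out, nor with no filter on low values. Adjusted for RNA integrity PEX10 stood at -0.44 and PEX6 at -0.18, neither of them called.

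PEX11 proteins elongate and divide peroxisomes. PEX11A, the form that PPAR-alpha induces in rodents, stood at 8.30, 8.01 and 8.33 in the GDF11 libraries, against 8.75, 8.89 and 8.73 in the controls, called lower at a log2 difference of -0.58 ± 0.15 (limma adjusted p = 0.0258). PEX11G did not pass the filter, with 6.81, 1.15 and 4.49 normalised reads with GDF11 and 0.986, 0 and 3.44 in controls. PEX11A was not called when control 1 (-0.60), control 2 (-0.52), GDF11 1 (-0.62), GDF11 2 (-0.48) or GDF11 3 (-0.63) was left out, or when adjusted for RNA integrity (-0.50).

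Among membrane proteins and catalase, PXMP2, a channel of the peroxisomal membrane, was the only one called. It stood at 9.30, 9.18 and 8.95 in the GDF11 libraries, against 10.15, 10.42 and 9.84 in the controls, called lower at a log2 difference of -0.99 ± 0.19 (limma adjusted p = 0.00611), and the groups did not overlap. Adjusted for RNA integrity it stood at -0.50 and was not called. ABCD3, the transporter that brings branched and bile acid precursor acyl-CoAs in, stood at 11.92, 11.94 and 12.18 with GDF11 and 12.60, 12.12 and 12.51 in controls, and was not called (log2 difference -0.40 ± 0.17, limma adjusted p = 0.128). It was called lower after correction for GC content and length, at -0.48.

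CAT, for the catalase that breaks down the hydrogen peroxide made by the oxidases, stood at 12.35, 12.39 and 12.57 with GDF11 and 12.28, 12.02 and 12.65 in controls, and its groups overlapped (log2 difference 0.12 ± 0.19, limma adjusted p = 0.678). ABCD4, a family member known for cobalamin transport in lysosomes, ACBD5, which tethers peroxisomes to the endoplasmic reticulum, and PXMP4 were not called, with log2 differences of -0.08 ± 0.16, 0.22 ± 0.20 and 0.03 ± 0.11. PXMP4 was near the lowest value, at 6.22 to 6.51 in the 6 libraries.

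Class means per library showed how far the peroxins and the enzymes moved together. The mean over the 15 tested enzymes was 11.06, 11.09 and 11.11 in the GDF11 libraries, against 11.58, 11.56 and 11.54 in the controls. The mean over the 12 tested PEX genes was 10.12, 10.16 and 10.11 in the GDF11 libraries, against 10.44, 10.52 and 10.25 in the controls. Both sets of means were lower with GDF11 without overlap, with differences of -0.47 for the enzymes and -0.27 for the PEX genes. The gap of PEX mean minus enzyme mean was -0.94, -0.92 and -1.0 in the GDF11 libraries, against -1.14, -1.04 and -1.29 in the controls. The difference of that gap, GDF11 minus control, was 0.20, and the lowest GDF11 value and the highest control value were close, at -1.0 and -1.04. Without control replicate 3, which has the widest gap, the difference was 0.13. Adjusted for RNA integrity it was 0.38. These are descriptions of chosen genes, and the gap was not tested.

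**Figure D3:**
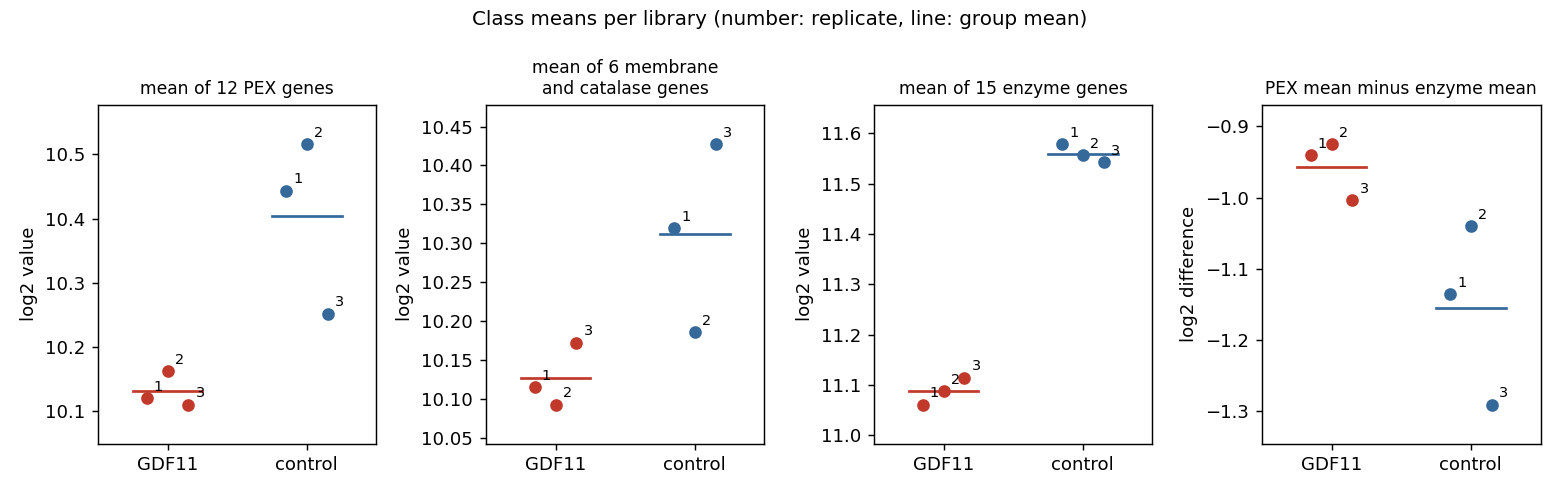
Mean log2 value of the tested PEX genes, membrane and catalase genes and enzyme genes in each library, and the PEX mean minus the enzyme mean, with GDF11 left of control (points: libraries with their replicate number, lines: group means). The enzyme means lie between 11.06 and 11.11 with GDF11 and between 11.54 and 11.58 in controls, while control replicate 3 lies lowest among the PEX means of the controls and highest among the membrane and catalase means.

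All 13 called members kept their direction in 17 alternative fits, but most of these fits could not have reversed it. The groups of all 13 did not overlap, so leaving out or weighting libraries keeps the sign. Changes of the filter, the variance model or the replicate block leave the estimate as it was. Of the 13, 4 were called in all 17 alternative fits, namely ACOX2, ACOX3, ECI2 and PECR. Over these fits the log2 difference ranged from -1.89 to -1.52 for ACOX2, from 1.52 to 1.93 for ACOX3, from -1.57 to -1.09 for ECI2 and from -1.37 to -0.94 for PECR. Adjusted p reached at most 0.00803, 0.0029, 0.00666 and 0.0257 for these genes. The transcript GC content of the 12 members called lower had a median of 47.2% (range 41.8% to 61.7%), against 44.1% (35.9% to 63.4%) over the 20 not called.

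**Figure D4:**
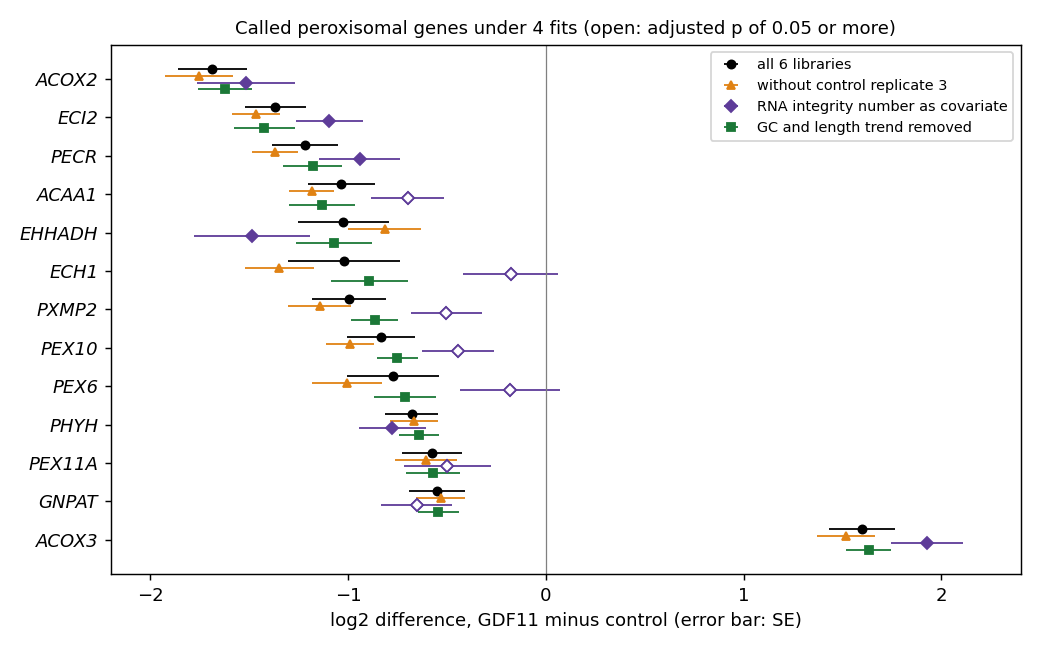
Log2 difference, GDF11 minus control, of the 13 called members in 4 fits (points: estimate, bars: SE, open points: adjusted p of 0.05 or more). ACOX2, ECI2, PECR, EHHADH, PHYH and ACOX3 have filled points in all 4, while ECH1 and PEX6 stand at -0.18 adjusted for RNA integrity.

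Other genes of the organelle were taken from lists. Of 32 tested further peroxisomal enzymes and transporters, 1 rose (3.1%), 9 fell (28.1%) and 22 were not called, with a median log2 difference of -0.38. Over all tested genes the shares were 11.7% higher and 10.8% lower. AGXT, the glyoxylate-detoxifying aminotransferase of liver peroxisomes, averaged 9.75 ± 0.14 with GDF11 and 11.84 ± 0.46 in controls, called lower at a log2 difference of -2.08 ± 0.23 (limma adjusted p = 0.000362). The epoxide hydrolase gene EPHX2 fell by 1.60 ± 0.16, MPV17L fell by 1.15 ± 0.19 and IDH1, a dehydrogenase of cytosol and peroxisomes that yields NADPH, fell by 0.93 ± 0.16.

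Of 12 tested further biogenesis and division genes, 1 rose (8.3%) and 0 fell, with a median of -0.0028. Over all tested genes 11.7% rose and 10.8% fell. DNM1L, the dynamin-related protein that cuts peroxisomes and mitochondria, stood at 11.93, 11.91 and 12.15 in the GDF11 libraries, against 11.33, 10.78 and 11.38 in the controls, called higher at a log2 difference of 0.83 ± 0.19 (limma adjusted p = 0.0147). The call ended without GDF11 replicate 3, at 0.76, and adjusted for RNA integrity, at 0.42. LONP2, a peroxisomal protease (0.57 ± 0.19, limma adjusted p = 0.0676), and MFF, the receptor of DNM1L on the organelle (-0.39 ± 0.17, limma adjusted p = 0.121), were not called, although the groups of neither overlapped. Both were called without control replicate 3, at 0.77 and -0.53.

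Of 8 genes of later ether lipid and plasmalogen metabolism, 1 was called higher (12.5%) and 2 lower (25%). All tested genes had 11.7% higher and 10.8% lower. CHPT1, a cholinephosphotransferase, fell by 1.33 ± 0.14 and TMEM86B, a lysoplasmalogenase, fell by 1.59 ± 0.21. PAFAH1B1, a subunit of the enzyme that degrades platelet-activating factor and a regulator of dynein, rose by 0.49 ± 0.14 (limma adjusted p = 0.0337). It was not called when control 1 (0.44), GDF11 1 (0.48), GDF11 2 (0.49) or GDF11 3 (0.51) was left out, with no filter on low values, after correction for GC content and length (0.30, or 0.18 with control 3 also left out) or when adjusted for RNA integrity (0.57).

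PPARA itself was not called, at 9.84 ± 0.12 with GDF11 and 10.20 ± 0.11 in controls (log2 difference -0.36 ± 0.15, limma adjusted p = 0.107), although its groups did not overlap. It was called lower after correction for GC content and length, at -0.59. Of the 10 regulators in the PPAR-alpha list, 1 rose and 5 fell, with a median of -0.51. Over all tested genes 11.7% rose and 10.8% fell. RXRA, for its dimer partner, fell by 0.76 ± 0.19, the liver factor FOXA2 fell by 0.83 ± 0.18 and CREB3L3, a fasting-induced factor, fell by 0.67 ± 0.17, while NCOA1, a coactivator, rose by 0.87 ± 0.21.

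The calls of RXRA, FOXA2, CREB3L3 and NCOA1 ended adjusted for RNA integrity, at -0.29, -0.42, -0.59 and 0.31. The RXRA call also ended when any library but control replicate 3 was left out, at -0.79 to -0.64. The FOXA2 call ended without GDF11 replicate 3, at -0.79. CREB3L3 was not called when control 2 (-0.56), GDF11 1 (-0.70) or GDF11 2 (-0.57) was left out, or after correction for GC content and length with control 3 left out (-0.49). NCOA1 was not called when control 1 or 2 (0.77 each) or GDF11 3 (0.72) was left out.

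Targets of PPAR-alpha outside the peroxisome went both ways, with 2 of 12 tested higher (16.7%) and 3 lower (25%). All tested genes had 11.7% higher and 10.8% lower. The lipid droplet coat gene PLIN2 rose by 1.13 ± 0.16 and the acyl-CoA synthetase gene ACSL1, whose product also reaches peroxisomes, rose by 1.35 ± 0.19. FABP1, for the liver fatty acid binding protein, fell by 1.93 ± 0.19 and CIDEC, a droplet fusion protein, fell by 1.60 ± 0.19. The median of the list was -0.10.

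**Figure D5:**
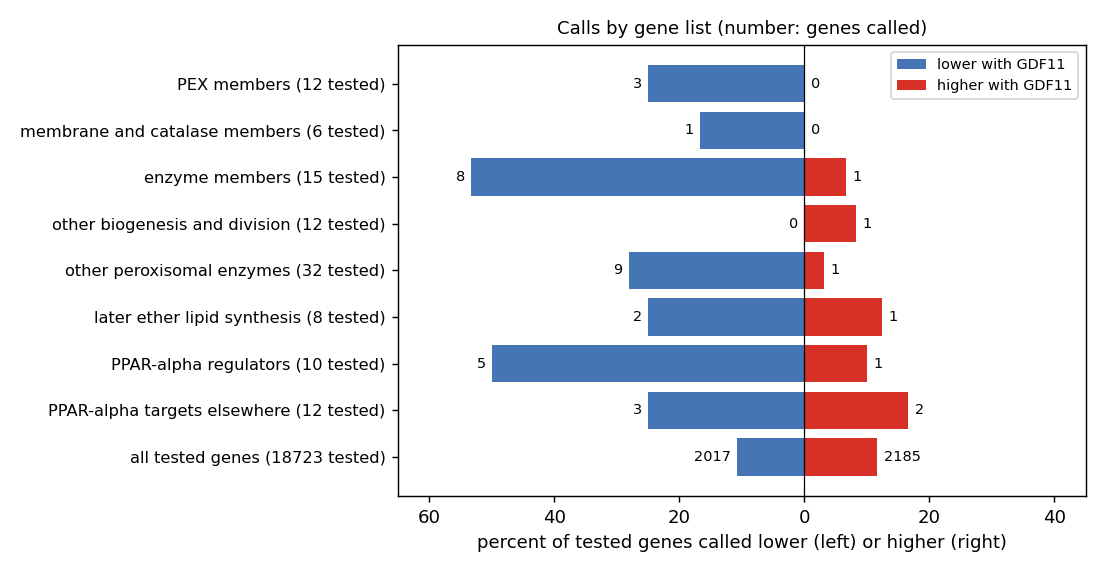
Percent of the tested genes of each list called lower (bars to the left) or higher (bars to the right) with GDF11, with the number of genes beside each bar. The enzyme members have 8 of 15 lower, against 2017 of all 18723 tested genes.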

How the data were processed

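The authors deposited 1 table of variance-stabilised log2 values for 60240 genes. The submitters' processing notes list Trimmomatic, Salmon 1.2.1, DESeq2 and GRCh38, and the labels' protocols name STAR 2.6 and hg19. The sources used here do not say which of these made the table. Normalised reads were obtained by inverting the curve from its lowest value. Of values up to 20 reads, 71.0% to 74.2% were whole within 0.01, so no count test was run. Depth was estimated from the step of 1 read.

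Genes averaging 0.5 or more above the lowest value were tested in limma 3.58.1 (R 4.3.3, lmFit, eBayes with a mean trend, two-sided, Benjamini-Hochberg adjustment over the 18723 tested genes, no covariate). The test was also checked on simulated data, in which 200 of 18723 genes were raised. It called 10% of log2 rises of 0.5 and 60% of rises of 1, and these shares may differ in the real data. A gene that was not called may thus still have changed. Members, lists and tests were chosen with earlier results of these data known. Every member is accounted for. Of other lists, up to 4 genes with the lowest unadjusted p are named, and PPARA and SMAD7 whatever their result. Some genes that this rule covers are not reported here. Symbols were matched for 58349 IDs, and PEX39 was not matched. Positions are RefSeq's (GRCh38.p14), looked up by symbol. Alternatives changed the filter, scaling, variance model, covariates and libraries. Correction for GC content and length (splines with 4 degrees of freedom per library, longest GRCh37 transcript) was added after the data were seen.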

Additional observations from a re-analysis of the deposited data

How the results depend on the processing

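Genes called higher and lower numbered 2185 and 2017. They were 4473 and 4554 with library weights, 1149 and 721 adjusted for RNA integrity, 3636 and 4453 after correction for GC content and length without control replicate 3, 1170 and 791 at an adjusted p under 0.01, and 1397 to 3647 and 955 to 3993 when 1 library was left out. Members lower, 12, were 5 adjusted for RNA integrity, 7 at p under 0.01 and 7 to 15 without 1 library. PEX genes lower, 3, were 6 with weights, 0 adjusted for RNA integrity, 6 with the GC correction without control replicate 3, 1 at p under 0.01 and 1 to 6 without 1 library. Enzymes lower, 8, were 5 adjusted for RNA integrity, 5 at p under 0.01 and 5 to 8 without 1 library. Membrane and catalase genes lower, 1, were 2 with weights, 0 adjusted for RNA integrity, and 2 with the GC correction, with or without control replicate 3. The PEX median, -0.24, was -0.14 adjusted for RNA integrity and -0.37 to -0.16 without 1 library. The enzyme median, -0.55, was -0.44 with no filter, -0.45 with quantile normalization, -0.62 with weights, -0.42 adjusted for RNA integrity and -0.63 to -0.49 without 1 library. The membrane and catalase median was -0.31 and the gap 0.38 adjusted for RNA integrity. The cause of these shifts was not tested.

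None of the genes that changed sign was called in the comparison. Adjusted for RNA integrity, PEX16 stood at 0.35, PEX19 at 0.021, PEX13 at -0.20, PEX14 at 0.12, ACBD5 at -0.27, PXMP4 at -0.11, CAT at -0.36, SCP2 at -0.39 and AGPS at -0.22. With weights, PEX2 stood at -0.13, ABCD4 at 0.11 and PXMP4 at -0.075. With quantile normalization, PXMP4 stood at -0.038 and HSD17B4 at 0.0035. With the GC correction, PEX26 stood at -0.24, PXMP4 at -0.11 and SCP2 at -0.013. That correction without control replicate 3 gave 0.052 for PEX3, -0.19 for PEX2, -0.36 for PEX26 (called lower), 0.027 for ABCD4, -0.15 for PXMP4 and 0.043 for CROT. With 1 library left out, PEX3 ranged from -0.27 to 0.070, PEX2 ranged from -0.060 to 0.39, PEX26 ranged from -0.0023 to 0.089, ABCD4 ranged from -0.19 to 0.024, PXMP4 ranged from -0.045 to 0.092. In the same fits, CAT ranged from -0.031 to 0.29, SCP2 ranged from -0.040 to 0.23, CROT ranged from -0.17 to 0.093.

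Replicate numbers are shared by the groups, but the labels do not say that they pair cultures. Deviations of same-numbered libraries correlated at -0.0883, 0.375 and 0.478, and not every library correlated best with its own number. With the replicate block, 3147 genes were called higher and 3306 lower, and 13 members lower, PEX5 being the addition. Small changes near the lowest value are limited by depth and compressed by the scale.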
